A study of Mus musculus with 14 samples.

Results

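The genes described here are those of the proteasome and its partners, taken as every mouse gene symbol made of Psm, one letter from a to g and a digit. The rule matched 56 symbols. After 5 entries named as pseudogenes were set aside, none of which had more than 46 counts in a library, 51 of the 55422 entries of the count table remained. Of these, 48 are subunits, caps, inhibitors or assembly chaperones of the proteasome. The other 3 share the name only or are copies, namely Psmc3ip, which acts in meiotic recombination, Psme3ip1, a partner of the PA28 gamma cap, and Psme2b, a retrocopy of Psme2. The members took 0.903% to 1.24% of all counts in a library.

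Brainstem tissue came from 7 mice carrying Th-Cre, a transgene that expresses Cre recombinase in cells that make catecholamines, and Slc6a2-eGFP/Rpl10a, which expresses a tagged ribosomal protein under the control of the noradrenaline transporter gene. All mice were 2 to 3 months old at infusion and carried both transgenes on a C57Bl/6 background. Into the locus coeruleus, the main noradrenergic nucleus of the brain, 4 mice (animals B, C, L and M) received human tau with the P364S mutation, and 3 mice (animals H, I and K) received the fluorescent protein EYFP as the control. Tau was given as a construct whose RNA was read in the libraries. From each mouse, RNA bound to the tagged ribosomes was recovered by immunoprecipitation (IP), and total RNA was taken from the homogenate before it (pre-IP), giving 4 tau IP, 3 EYFP IP, 4 tau pre-IP and 3 EYFP pre-IP libraries. The tag driver marks noradrenergic cells, and the homogenate holds all cell types of the tissue.

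The proteasome is the large protease that degrades ubiquitin-tagged proteins in the cytosol and nucleus. Its 20S core is a barrel of alpha and beta rings in which Psmb5, Psmb6 and Psmb7 encode the active sites, and its 19S cap, built from a ring of ATPases (Psmc genes) and non-ATPase subunits (Psmd genes), binds, unfolds and feeds in the substrate. Interferon replaces the active subunits with Psmb8, Psmb9 and Psmb10 to form the immunoproteasome, and Psme1 and Psme2 form the PA28 cap that often sits on it. In neurons proteasomes take part in synaptic protein turnover, and tau is among their known substrates.

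Transcription of the subunits is known to be raised by Nfe2l1 through antioxidant response elements and, for the immunoproteasome and PA28 genes, by interferon. The promoter windows of RefSeq (GRCm38.p6, 250 bases before to 50 after the start site) were matched for 43 of the 51 members, which have 47 windows. The element core TGACNNNGC, searched on both strands, was found in 6 of the 47 windows (12.8%) and in 12.4% of all 32851 windows. The interferon-stimulated response element, searched on both strands as 2 copies of GAAA with any 2 bases between them, was found in 5 of the 47 (10.6%) and in 3.44% of all windows. Those 5 were Psmb3, Psmd4, Psmd9, Psme1 and Psmg4, and the windows of Psmb8, Psmb9, Psmb10 and Psme2 held no match. The windows of Psmb5 and Psmb6, both active-site subunits, of Psmd12 and of Psme1 are printed as examples that hold one of the elements, with the match in capitals. They lie at chr14:54617946-54618245 on the minus strand (Psmb5), chr11:70525107-70525406 on the plus strand (Psmb6), chr11:107479278-107479577 on the plus strand (Psmd12) and chr14:55578244-55578543 on the plus strand (Psme1). The match is TGACNNNGC in the first 3 and the interferon element in the last, and in Psmd12 and Psme1 the match is on the reverse strand.
Psmb5: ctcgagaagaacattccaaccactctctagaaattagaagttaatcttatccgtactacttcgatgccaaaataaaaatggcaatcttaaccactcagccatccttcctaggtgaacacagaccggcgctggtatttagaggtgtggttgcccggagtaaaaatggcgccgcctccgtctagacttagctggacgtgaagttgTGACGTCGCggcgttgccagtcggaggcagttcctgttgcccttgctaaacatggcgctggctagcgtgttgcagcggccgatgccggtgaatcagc
Psmb6: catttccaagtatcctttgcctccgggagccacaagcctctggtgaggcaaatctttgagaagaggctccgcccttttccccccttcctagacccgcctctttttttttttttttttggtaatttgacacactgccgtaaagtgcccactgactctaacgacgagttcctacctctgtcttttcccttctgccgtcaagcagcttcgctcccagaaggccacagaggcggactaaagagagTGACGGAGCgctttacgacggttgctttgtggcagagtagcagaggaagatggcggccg
Psmd12: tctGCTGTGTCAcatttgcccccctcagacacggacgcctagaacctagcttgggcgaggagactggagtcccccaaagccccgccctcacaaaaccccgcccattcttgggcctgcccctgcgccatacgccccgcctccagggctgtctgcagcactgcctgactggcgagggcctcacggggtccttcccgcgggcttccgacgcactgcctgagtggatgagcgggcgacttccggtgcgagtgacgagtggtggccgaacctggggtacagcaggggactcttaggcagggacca
Psme1: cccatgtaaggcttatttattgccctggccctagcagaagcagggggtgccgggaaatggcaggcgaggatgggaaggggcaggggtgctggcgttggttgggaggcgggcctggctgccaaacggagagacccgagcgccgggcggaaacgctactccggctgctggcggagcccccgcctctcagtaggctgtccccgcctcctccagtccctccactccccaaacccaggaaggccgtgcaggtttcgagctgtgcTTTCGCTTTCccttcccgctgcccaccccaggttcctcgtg

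Several libraries stood apart. Total counts ran from 41843489 to 65664551 per library, and 51 members were detected in 11 of the 14 libraries and 50 in the other 3. The EYFP IP library of animal I had an RNA integrity number of 4.2, against 7.7 to 9.0 in the other 13 libraries. RNA concentration was 0.1 to 0.8 ng per microlitre in tau IP, 0.7 to 2.8 in EYFP IP and 11.4 to 29.9 in pre-IP libraries. The tau IP library of animal B had the lowest (0.1) and the fewest genes detected (20813, against 23632 to 25885 in the others). Fraction and RNA concentration cannot be told apart here, and the part of RNA concentration in the results was not tested. Reads of the tau construct were counted at 6943 to 47177 in tau IP and 3527 to 11358 in tau pre-IP libraries, and at 2 to 18 in the libraries of EYFP animals H and I. Both libraries of EYFP animal K held 398 and 408 of them. By label, tau animals B and L and EYFP animal I were male, and tau animals C and M and EYFP animals H and K female. In the libraries of M, 4 Y-linked genes summed to 22.1 and 10.9 CPM (counts divided by the library total and multiplied by 1e6). The other animals labelled female held at most 0.0769 CPM of them, and those labelled male 19.1 to 102 CPM. The part of sex in the results was not tested. The summed level of 12 noradrenergic markers was 1070 to 7168 CPM in tau IP and 564 to 642 CPM in EYFP IP libraries, so these groups differed in how far the IP had enriched noradrenergic RNA. Within an animal, the mean log2 IP to pre-IP ratio of these markers was 4.65 in B, 3.63 in C, 3.54 in L and 1.70 in M, and 0.75 in H, 0.93 in I and 0.64 in K.

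Levels are compared between genes only per length. On the scale of CPM per kb of deposited exon length, the mean over the 3 EYFP pre-IP libraries ran from 36.8 (Psma4) to 139 (Psma6) in the alpha ring and from 25.4 (Psmb7) to 239 (Psmb6) in the constitutive beta ring. The 19S ATPases ran from 17.1 (Psmc6) to 979 (Psmc5) on that scale, and Psmc5 was the highest of all members in these libraries. The 19S non-ATPase subunits ran from 20.9 (Psmd11) to 137 (Psmd7), and the assembly chaperones of the 20S core from 6.67 (Psmg3) to 33.0 (Psmg4). Some of these ranks depended on the length used. Per kb of principal transcript, Psma7 (319) was highest in the alpha ring, Psmd4 (235) among the non-ATPase subunits and Psmg1 (33.5) among the 20S chaperones. The lowest levels belonged to the subunits restricted to single tissues. Psma8, a testis subunit, had 0.253 and Psmb11, the thymus subunit, 0.0280 CPM per kb in EYFP pre-IP. Psmb11 had 0 counts in 3 libraries, where up to 3 counts (0.0457 to 0.0641 CPM in those 3) would be allowed.

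Comparing IP with pre-IP asks which messages were over-represented on the tagged ribosomes relative to the whole tissue. All 14 genes of the 20S core, which is the degrading barrel, were higher in IP (edgeR quasi-likelihood test with Benjamini-Hochberg adjustment over all genes, adjusted p from 0.000263 to 0.00925). Their log2 fold changes ran from 0.46 (Psmb5) to 0.79 (Psma1), a median of 0.57 or 1.48-fold. Of the 17 genes of the 19S cap, 5 were higher, 1 was lower and 11 did not pass, with a median of 0.11. The largest differences in IP belonged to 2 genes outside the core, the PA200 cap gene Psme4 (1.24) and the ATPase gene Psmc6 (1.21), while the nuclear PA28 gamma cap gene Psme3 (-0.59) and Psmd2, a scaffold subunit of the 19S cap (-0.44), were lower. Over all members, 50 could be tested, 28 were called higher and 2 lower. Of all 18792 genes tested 31.0% were called, 16.3% higher and 14.7% lower. In all, 42 of the 50 members had a positive log2 fold change, where 49.7% of all genes did. The members' median log2 fold change was 0.40 and that of all genes tested was -0.00. In a bulk sample, fewer cells of a type and less RNA per cell cannot be told apart.

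**Figure D1:**
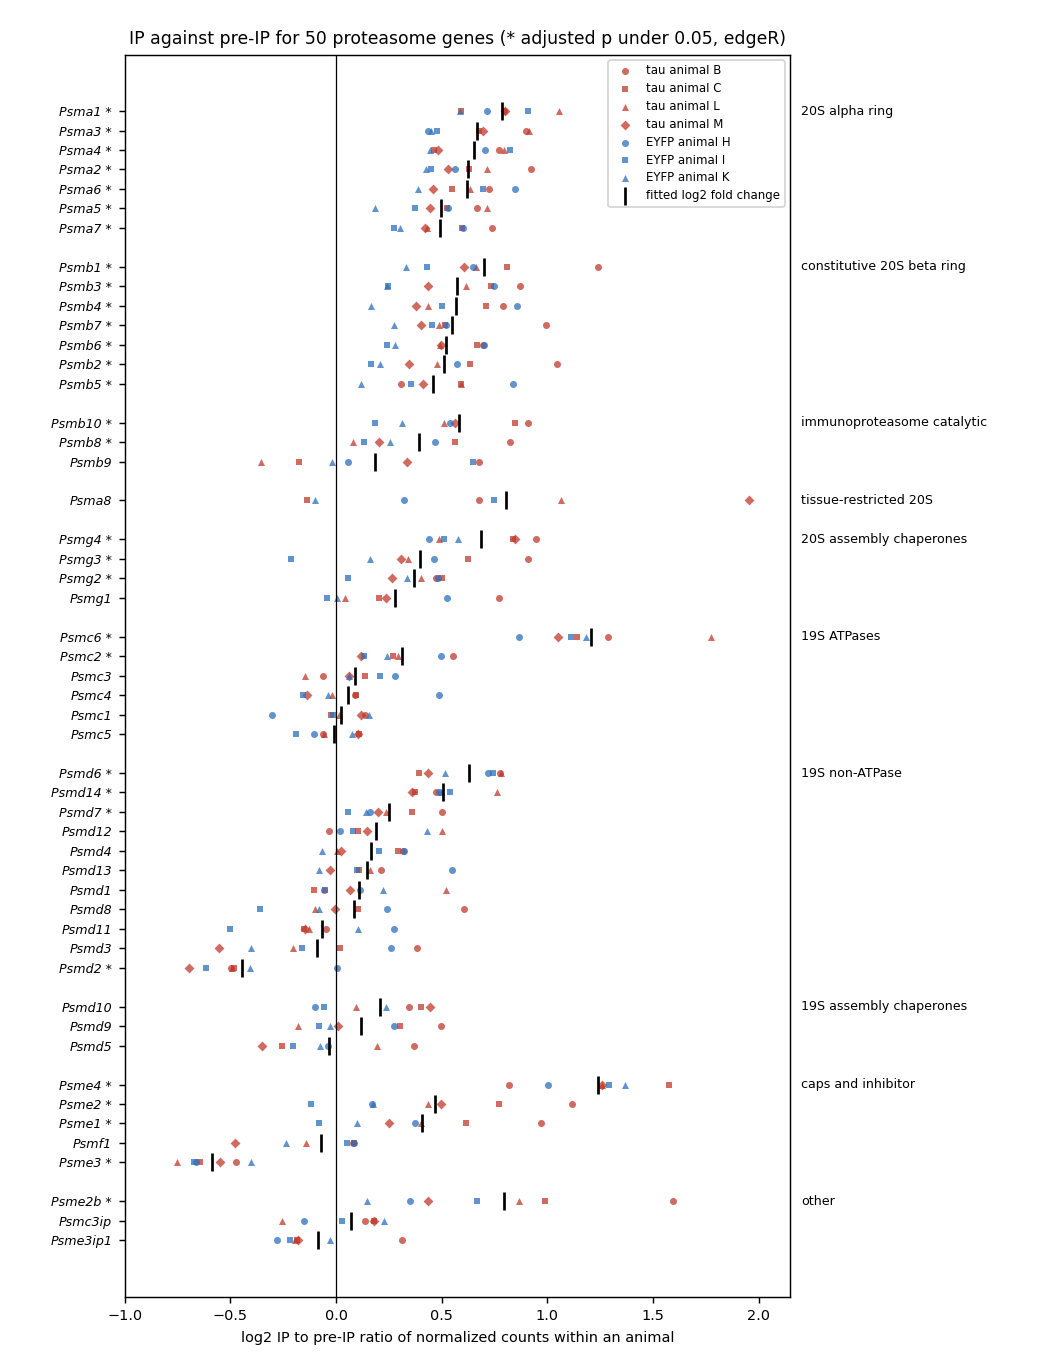
Log2 IP to pre-IP ratio of normalized counts within each animal (x axis) for the 50 proteasome genes tested (rows, grouped by role), with 1 point per animal (tau in red, EYFP in blue) and a black bar at the fitted log2 fold change. All points of the 14 alpha and constitutive beta genes lie to the right of 0, those of Psme3 lie to the left, and the 19S genes lie on both sides of 0 except for a few such as Psmc6.

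In the alpha ring, which gates the core, 7 of 7 genes were called higher, were higher in CPM in each of the 7 animals and showed no overlap between the 7 IP and the 7 pre-IP libraries. Across all genes tested, 3.69% did not overlap in that direction and 10.8% were higher in all 7 animals. Psma1 lay at 178, 209 and 245 CPM (lowest, median and highest) in IP and at 102, 126 and 159 CPM in pre-IP, so the highest homogenate stayed below the lowest IP library. Its log2 fold change was 0.79 ± 0.12 (SE), the highest of the ring, and that of Psma7 was the lowest at 0.49 ± 0.10.

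In the constitutive beta ring, 7 of 7 genes were called higher and were higher in CPM in 7 of 7 animals, and only Psmb1 (0.70 ± 0.13) showed no overlap. Psmb5, the chymotrypsin-like site, lay at 256, 311 and 327 CPM in IP and at 183, 228 and 301 CPM in pre-IP (0.46 ± 0.10). Psmb6, the caspase-like site, lay at 567, 658 and 825 CPM in IP and at 393, 480 and 589 CPM in pre-IP (0.52 ± 0.11). Psmb7, the trypsin-like site, lay at 101, 124 and 193 CPM in IP and at 73.8, 91.0 and 112 CPM in pre-IP (0.55 ± 0.15). In these 3 genes the highest pre-IP library, animal B for each, lay above the lowest IP library.

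The immunoproteasome counterparts differed among themselves. Psmb10 was higher in IP, at 116, 150 and 213 CPM against 90.8, 110 and 131 CPM in pre-IP (0.58 ± 0.13, adjusted p 0.00338). Psmb8 passed narrowly, at 5.96, 8.09 and 12.1 CPM against 5.37, 6.48 and 7.89 CPM (0.39 ± 0.14, adjusted p 0.0464), and with the animal as a block, where 28 members and 32.6% of all genes were called, its adjusted p was 0.0569. Psmb9 did not pass, at 3.80, 5.38 and 6.39 CPM against 3.73, 4.54 and 6.54 CPM (0.18 ± 0.18, adjusted p 0.467), and was higher in IP in 4 of 7 animals. Psma8 did not pass either (0.80 ± 0.33, adjusted p 0.0715), and Psmb11 had too few counts for this test.

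Among the 19S ATPases, Psmc6 lay at 99.2, 134 and 163 CPM in IP and at 39.9, 57.0 and 77.1 CPM in pre-IP with no overlap (1.21 ± 0.16, adjusted p 8.68e-05). Psmc2 was also called higher (0.31 ± 0.11), and the other 4 ATPases did not pass, Psmc5 being lowest at -0.01 ± 0.08. Of 11 non-ATPase genes, Psmd6 (0.63 ± 0.12), Psmd14 (0.51 ± 0.11), which encodes the deubiquitinase of the lid, and Psmd7 (0.25 ± 0.09) were called higher. With the animal as a block, Psmd7 had an adjusted p of 0.0533. Psmd2 was called lower, at 274, 375 and 503 CPM in IP against 447, 525 and 591 CPM in pre-IP, and was lower in CPM in 7 of 7 animals, with the groups overlapping through animals H and B. The 3 chaperones of 19S assembly did not pass and ranged from -0.03 (Psmd5) to 0.21 (Psmd10).

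Of the caps, Psme4 lay at 10.04, 11.6 and 17.5 CPM in IP and at 4.32, 5.55 and 7.04 CPM in pre-IP (adjusted p 5.09e-05), and Psme3 at 219, 260 and 303 CPM in IP and 343, 409 and 444 CPM in pre-IP (adjusted p 0.00026). In both genes the groups did not overlap, Psme3 being the 1 member to do so with lower IP values, where 5.77% of all genes did. Psme3 and Psmd2 were the 2 members lower in CPM in all 7 animals, where 16.5% of all genes were. Psme1 (0.41 ± 0.14, adjusted p 0.0338) and Psme2 (0.47 ± 0.15, adjusted p 0.0256) were called higher, and the inhibitor gene Psmf1 was not (-0.07 ± 0.11). In EYFP animals alone, Psme1 had 0.12 ± 0.15 and Psme2 0.07 ± 0.14 (adjusted p 0.705 and 0.838 by edgeR), against 0.59 ± 0.18 and 0.73 ± 0.18 in tau animals alone (adjusted p 0.0424 and 0.0198). Psme1 lay at 74.4, 86.1 and 141 CPM in IP and at 67.3, 78.9 and 83.5 CPM in pre-IP, and Psme2 at 66.0, 84.6 and 136 CPM in IP and at 58.0, 65.7 and 72.4 CPM in pre-IP, both with overlapping groups and with animal B highest in IP. Of the 4 chaperones of 20S assembly, 3 were called higher, from Psmg2 (0.37 ± 0.09) to Psmg4 (0.68 ± 0.14), and Psmg1 did not pass (0.28 ± 0.13). Among the other 3 names, Psme2b was called higher (0.79 ± 0.21), and Psmc3ip (0.07 ± 0.14) and Psme3ip1 (-0.09 ± 0.11) did not pass. Psme3ip1 lay at 65.2, 72.7 and 92.8 CPM in IP and at 75.99, 83.2 and 92.5 CPM in pre-IP.

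The difference between core and cap can be read in each animal. The summed CPM of the 14 core genes divided by that of the 17 cap genes was 0.531, 0.618 and 0.669 in the EYFP pre-IP libraries (animals H, I and K) and 0.775, 0.851 and 0.794 in their IP libraries. In the tau animals B, C, L and M it was 0.744, 0.651, 0.616 and 0.606 in pre-IP and 1.19, 0.951, 0.914 and 0.847 in IP. The ratio was higher in IP in all 7 animals, and the lowest IP library (0.775) lay above the highest pre-IP library (0.744). The numerator moved more than the denominator, since the cap genes summed to 5121 ± 325 CPM (SD, n = 3) in EYFP pre-IP and 5268 ± 87.7 in EYFP IP, and the core genes to 3097 ± 334 and 4250 ± 249.

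**Figure D2:**
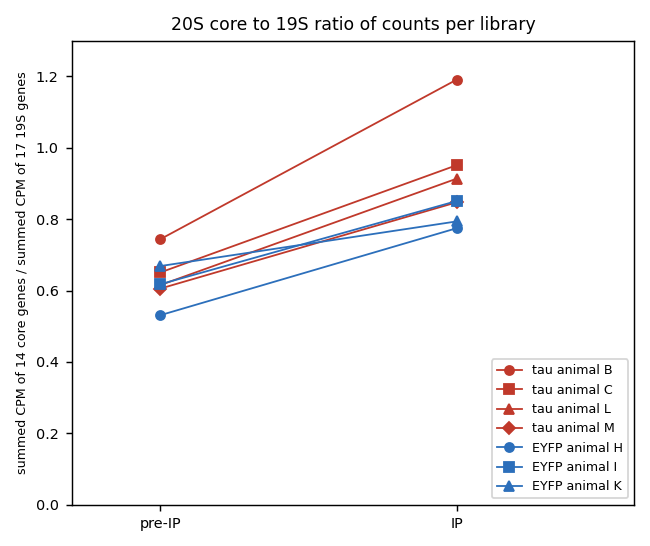
Summed CPM of the 14 genes of the 20S core over summed CPM of the 17 genes of the 19S cap (y axis) in the pre-IP and IP library of each animal, joined by a line (tau in red, EYFP in blue). Each animal is higher in IP, with 0.531 to 0.744 in pre-IP and 0.775 to 1.19 in IP, and animal B is highest in both fractions.

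Within each treatment the comparison has fewer libraries. In EYFP animals alone 5 of 51 members were called, namely Psma1 (0.74), Psma4 (0.65), Psmc6 (1.06) and Psme4 (1.22) higher and Psme3 (-0.59) lower, where 6.38% of 19105 genes were called, 3.96% higher and 2.41% lower. In tau animals alone 27 of 50 were called, where 20.7% of 18949 genes were called, 10.4% higher and 10.3% lower. The median of the core genes was 0.43 in the former and 0.63 in the latter. For Psme4 the log2 fold change was 1.22 ± 0.24 in EYFP and 1.22 ± 0.19 in tau animals, for Psmc6 1.06 ± 0.19 and 1.29 ± 0.22, and for Psme3 -0.59 ± 0.14 and -0.61 ± 0.14, while noradrenergic enrichment differed between the treatments as given above.

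Markers of other cell types had mixed values between the fractions, where 16.3% of all genes were called higher and 14.7% lower. The median log2 fold change was 0.60 over 5 neuronal genes (2 called higher, 1 lower) and -0.45 over 7 oligodendrocyte genes (1 higher, 2 lower). It was -0.24 over 6 astrocyte genes (1 higher, 1 lower) and -0.10 over 7 microglial genes (0 higher, 3 lower). Their part in the result was not tested. Proteasome transcripts are short, with a median principal transcript of 1440 bases against 2670 for all genes tested, and short genes as a whole leaned towards IP. Among all genes of up to 1595 bases, the shortest of 4 equal classes, the median log2 fold change was 0.24, and 23.4% were called higher. In that class the 11 core genes had a median of 0.55 with 11 called higher, and the 8 cap genes a median of 0.13 with 3 called higher. The 3 longer core genes Psmb1, Psma2 and Psma3 had values of 0.70, 0.62 and 0.67, in length classes where the medians of all genes were -0.06 and -0.17. Across the 50 members, Spearman's rho of the log2 fold change with transcript length was -0.39 and with transcript GC content -0.34. Over 18360 genes the same coefficients were -0.20 and -0.35. In the lowest of 4 equal GC classes, all genes had a median of 0.33, and 32.9% were called higher. The 5 core genes there had a median of 0.67 (5 called higher). The 3 cap genes, with Psmc6 (37.0% GC) among them, had 0.51 (2 called higher). In the classes of higher GC, core medians were 0.55, 0.54 and 0.49, and cap medians 0.18, 0.07 and 0.00. The part of GC content in the result was not tested. Genes share libraries and are not independent replicates.

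**Figure D3:**
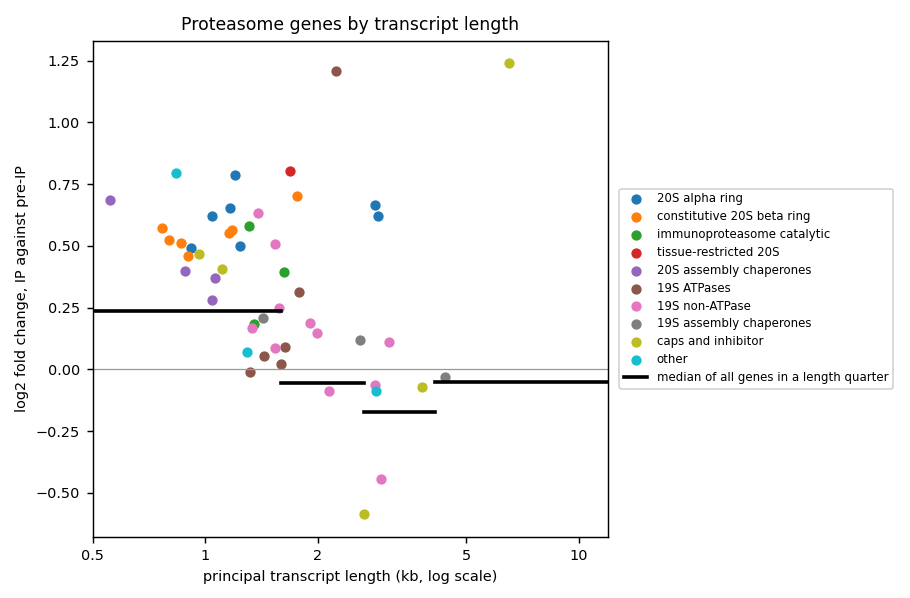
Log2 fold change of IP against pre-IP (y axis) by principal transcript length in kb (x axis, log scale) for the 50 proteasome genes tested, coloured by role, with black lines at the median of all genes in each of 4 length classes of equal size. The alpha and constitutive beta genes, with transcripts of 766 to 2911 bases and none in the longest class, lie between 0.46 and 0.79. That is above the line of 0.24 for the shortest class.

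Of 28 further genes of the ubiquitin and proteasome pathway, 27 had an entry and were tested, and 13 were called higher and 3 lower in IP, where 16.3% of all genes were called higher and 14.7% lower. Pomp, the maturation factor of the core, was higher (0.61 ± 0.14), as were Sem1, a small cap subunit (0.68 ± 0.17), the cap-bound deubiquitinases Usp14 (0.69 ± 0.11) and Uchl5 (0.82 ± 0.12), the ubiquitin ligase Ube3a (1.19 ± 0.15) and the neuronal hydrolase Uchl1 (0.83 ± 0.21). Nfe2l1, the transcription factor of proteasome genes (-0.67 ± 0.10), the shuttle factor Ubqln4 (-0.73 ± 0.10) and the ubiquitin-activating enzyme Uba1 (-0.37 ± 0.12) were lower. Adrm1 (-0.06 ± 0.09, adjusted p 0.651) and Ube3c (-0.29 ± 0.11, adjusted p 0.0522), also of this list, did not pass by edgeR. Each was higher in IP in 1 of 7 animals. Of 10 genes of interferon response and antigen presentation, 0 were called by edgeR (0 also at an unadjusted p under 0.05), where 31.0% of all genes were called.

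The comparison of tau IP with EYFP IP is the one the series was designed for. No member and no other gene of the 19472 tested was called by edgeR (0.0%), and Psme2 alone among the members was called by the Wald test of DESeq2 (adjusted p 0.0278, log2 fold change 0.79), which called 2.11% of all genes. The members nevertheless leaned one way, 44 of 50 having a positive log2 fold change where 43.4% of all genes did. Their median was 0.24 and that of all genes -0.08. At an unadjusted p under 0.05 there were 14 members with higher and 0 with lower values, against 7.93% higher and 4.06% lower of all genes, and 14 members did not overlap between the groups, all with higher tau values, where 6.36% of all genes did so with higher and 9.22% with lower values. The core genes held 8 of each of these sets, all 14 of them had positive values, and their median was 0.39. The 17 genes of the 19S cap had a median of 0.12, with 0 at an unadjusted p under 0.05 and 2, Psmd7 and Psmd8, that did not overlap, with higher tau values.

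Leaving out each animal in turn, 41 to 46 members had positive values, and the members' median was 0.15 (without H) to 0.29 (without I). The count of 14 members at an unadjusted p under 0.05 was 9 without animal B, 9 without C, 6 without H, 7 without I and 4 without K, the animal with tau construct reads among the controls, and 12 and 15 without L and M. The libraries also fall into number ranges, up to 11 and from 17, as their labels number them. The members' median difference was 0.34 in the first range (2 tau and 2 EYFP animals) and 0.08 in the second (2 tau and 1 EYFP), and that of the core genes 0.51 and 0.20. The summed microglial markers were at 123 to 239 CPM in tau IP and 223 to 272 CPM in EYFP IP, oligodendrocyte markers at 3652 to 10339 and 8853 to 13158 CPM, and astrocyte markers at 408 to 895 and 843 to 1111 CPM. With the noradrenergic difference given above, the treatment and the cell makeup of the IP cannot be told apart here. Length also moved with it, since genes of up to 1543 bases had a median of 0.26, and the 28 members among them 0.31.

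The smallest p-values belonged to the PA28 cap and a beta subunit. Psme2 was at 136, 105, 95.95 and 84.6 CPM in tau IP (animals B, C, L and M) and at 70.6, 66.0 and 67.5 CPM in EYFP IP (H, I and K), with every tau library above every EYFP library (log2 fold change 0.75 ± 0.21, unadjusted p 0.0051 and adjusted p 0.318 by edgeR). Its range over all settings tried was 0.55 to 0.86, with an adjusted p of 0.0278 to 0.636. Psme2 shares 99.4% identity with Psme2b over 82.5% of its transcript, so reads could be split between them, and Psme2b had the highest value of all members (0.82 ± 0.35, adjusted p 0.399). Psme1, the partner subunit, was at 141, 119, 103 and 85.1 CPM in tau IP and at 86.1, 77.9 and 74.4 CPM in EYFP IP, where animal M overlapped with H (0.62 ± 0.21, adjusted p 0.325). Psmb2, a beta subunit without an active site, was at 426, 331, 337 and 292 CPM in tau IP and 246, 253 and 258 CPM in EYFP IP without overlap (0.58 ± 0.19, adjusted p 0.319).

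Within the catalytic pairs, both partners were measured side by side. Psmb5 was at 323, 327, 322 and 309 CPM in tau IP and 311, 300 and 256 CPM in EYFP IP (0.26 ± 0.14), and its counterpart Psmb8 at 12.1, 9.08, 8.09 and 8.72 CPM against 7.26, 5.96 and 6.88 CPM (0.62 ± 0.25, unadjusted p 0.0326, adjusted p 0.379). The Psmb5 groups overlapped through animals H and M and the Psmb8 groups did not. Psmb6 was at 825, 737, 664 and 658 CPM against 609, 594 and 567 CPM without overlap (0.41 ± 0.16), and Psmb9 at 5.69, 3.80, 5.03 and 6.39 CPM against 3.96, 5.94 and 5.38 CPM with wide overlap (0.15 ± 0.29). Psmb7 was at 193, 138, 122 and 124 CPM against 101, 121 and 125 CPM (0.44 ± 0.23), and Psmb10 at 213, 187, 148 and 150 CPM against 152, 129 and 116 CPM (0.52 ± 0.20, unadjusted p 0.0264, adjusted p 0.358). For Psmb10, animals L and M of the tau group lay within the EYFP range and B and C above it, and for Psmb7 animals L and M lay within it.

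**Figure D4:**
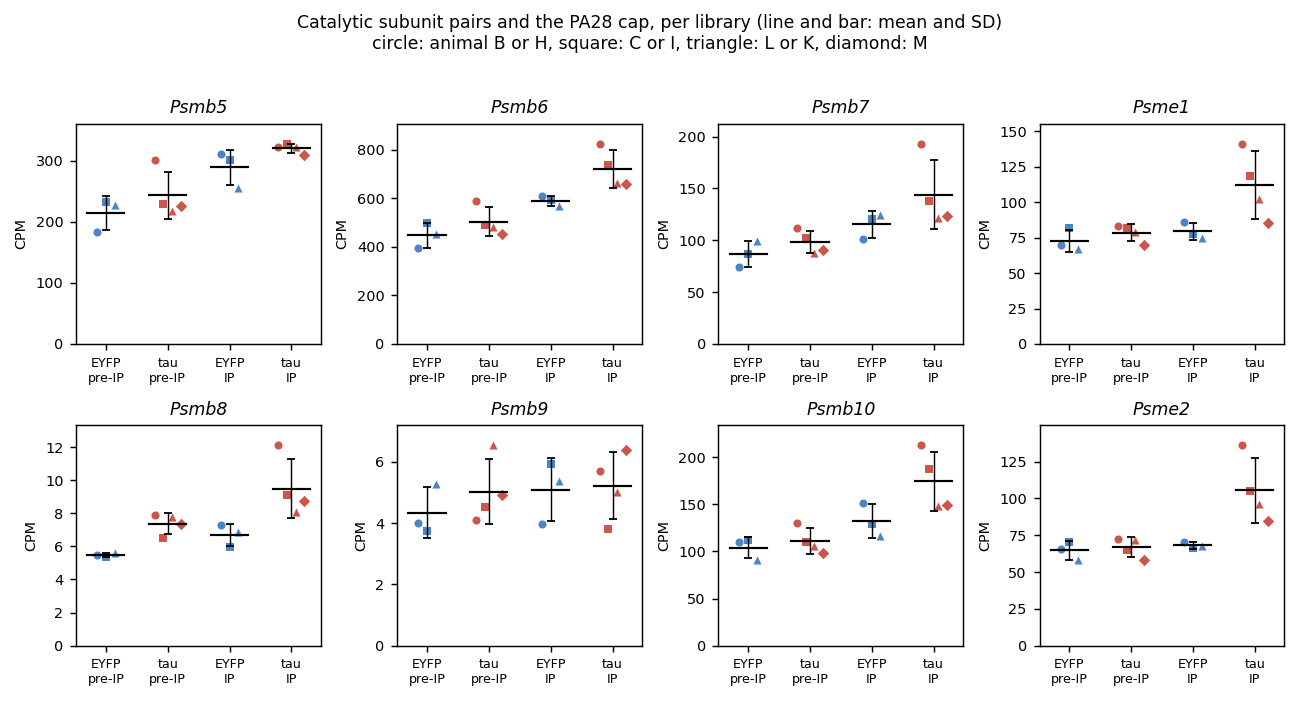
CPM (y axis, from 0) of the constitutive catalytic genes Psmb5, Psmb6 and Psmb7, their immunoproteasome counterparts Psmb8, Psmb9 and Psmb10 and the PA28 genes Psme1 and Psme2 in each library of the 4 groups (x axis), with the mean (line) and SD (bar). In tau IP, animal B (circle) is highest for Psmb6, Psmb7, Psmb8, Psmb10, Psme1 and Psme2, and Psme2 is at 84.6 to 136 CPM in tau IP against 66.0 to 70.6 CPM in EYFP IP.

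In the other roles no gene passed the adjusted test by edgeR. In the alpha ring the log2 fold change ran from 0.11 (Psma4) to 0.48 (Psma3), among the ATPases from -0.05 (Psmc3) to 0.26 (Psmc6) and among the non-ATPase subunits from -0.19 (Psmd2) to 0.39 (Psmd8). It ran from 0.16 (Psmd5) to 0.42 (Psmd10) among the 19S chaperones, from 0.21 (Psmg2) to 0.45 (Psmg3) among the 20S chaperones and was 0.26 for Psma8 and 0.17 for Psmc3ip, the lowest of the remaining names. Of the members with negative values, Psmd2 had the smallest p (0.265 unadjusted), at 274, 352, 391 and 375 CPM in tau IP and 503, 363 and 408 CPM in EYFP IP. Psmc3 was at 301, 361, 328 and 389 CPM against 383, 423 and 350 CPM (unadjusted p 0.697), and Psme4 at 10.04, 14.2, 13.1 and 10.9 CPM against 11.6, 17.5 and 11.6 CPM (-0.06 ± 0.22, unadjusted p 0.782). All 3 overlapped between the groups.

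**Figure D5:**
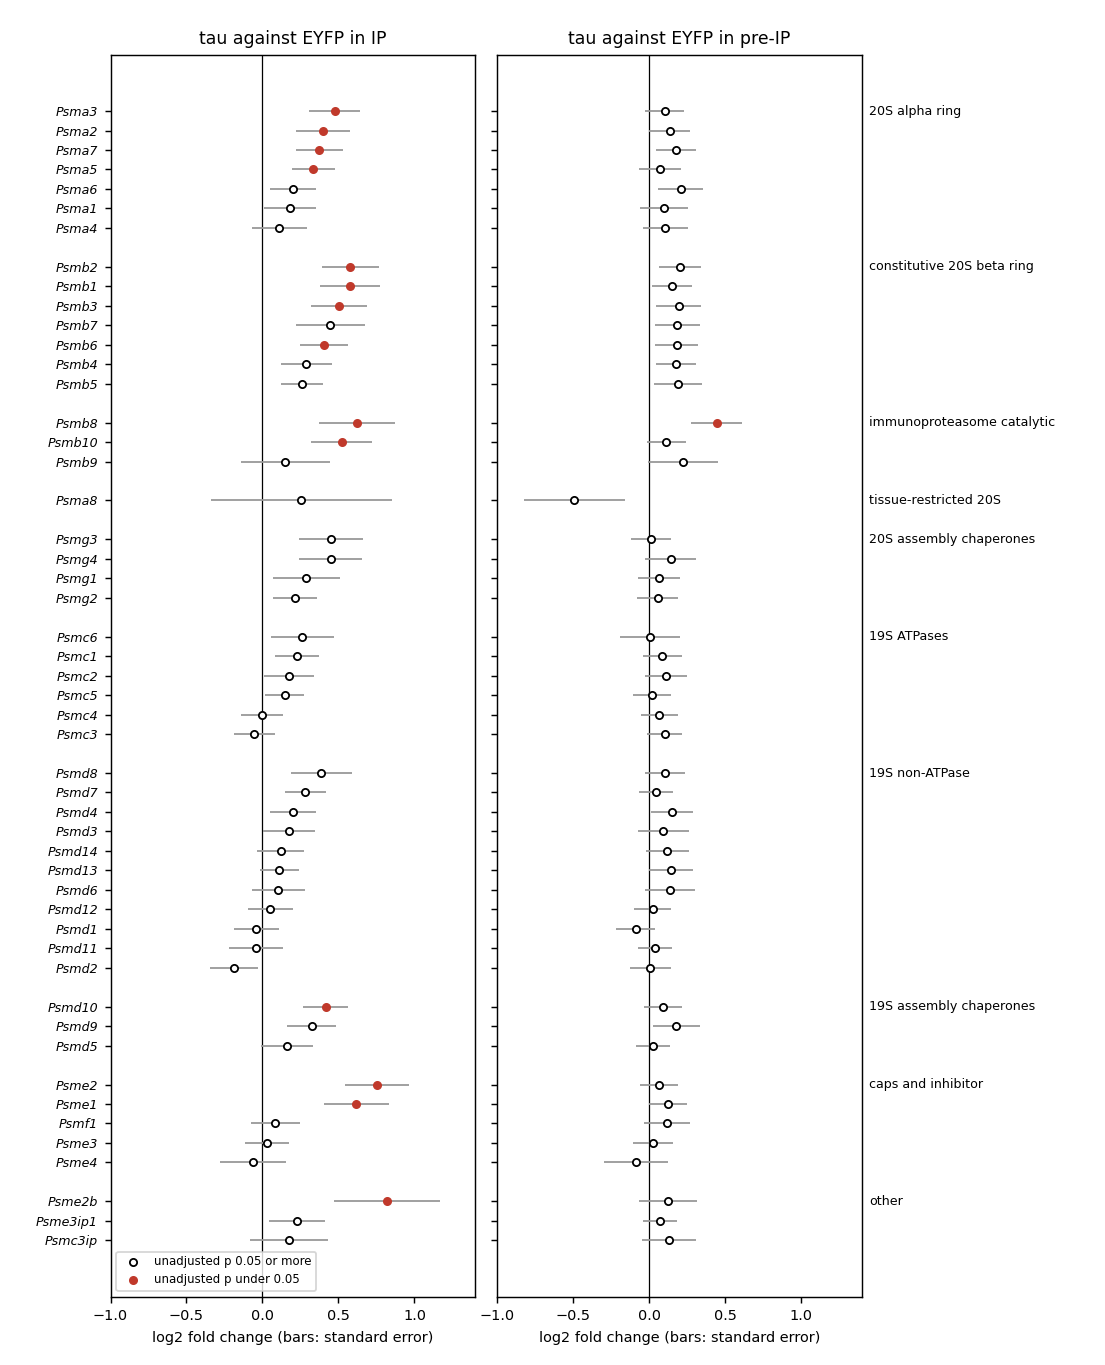
Log2 fold change of tau against EYFP (x axis) with its standard error for the 50 members tested in IP, grouped by role, in IP (left) and pre-IP (right), with red points for an unadjusted p under 0.05. On the left 14 points are red and 44 of 50 lie above 0, and on the right 1 point, Psmb8, is red.

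Among the 27 pathway genes, 0 were called in tau IP against EYFP IP by edgeR, with 6 higher and 2 lower at an unadjusted p under 0.05, where 7.93% of all genes were higher and 4.06% lower. Uchl1 had a log2 fold change of 0.98 ± 0.31, Sem1 of 0.91 ± 0.23 and Pomp of 0.69 ± 0.20, while Nfe2l2, the factor of the oxidative stress response, had -0.76 ± 0.23 and Ngly1, the enzyme that activates Nfe2l1, -0.71 ± 0.16. Each of these had an adjusted p of 0.318. Of the 10 genes of interferon response and antigen presentation, 0 were called and 2 had positive values, with a median of -0.17 (0 at an unadjusted p under 0.05).

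In the homogenate, tau pre-IP against EYFP pre-IP, no gene of 19197 was called by edgeR (0.0%) or by DESeq2, and the member values were small. Of 51 members, 48 had positive values, where 49.9% of all genes did, with a median of 0.11. Short genes in general leaned the same way. All genes of up to 1579 bases had a median of 0.09, and the 28 members among them 0.12. All genes of 1580 to 2646 bases had a median of 0.03, and the 12 members among them 0.10. One member reached an unadjusted p under 0.05, where 0.578% of all genes did so with higher and 2.26% with lower values. That was Psmb8, at 7.89, 6.48, 7.76 and 7.38 CPM in the tau animals and at 5.50, 5.37 and 5.58 CPM in the EYFP animals, without overlap (0.44 ± 0.17, unadjusted p 0.0222, adjusted p 1.00). Exons of Psmb8 overlap those of the opposite-strand gene Gm20496 over 498 bases, 14.7% of its exon length, and the counting is not stated to use strand. The summed microglial markers were at 225 to 288 CPM in tau and 212 to 260 CPM in EYFP homogenates, and their part in the result was not tested.

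Psmb8 and Psmb2 were the members that did not overlap with higher tau values (1.33% of all genes), and Psma8 the 1 with lower values (1.78% of all genes). The other catalytic genes overlapped between the groups in the homogenate. Psmb5 was at 301, 229, 217 and 226 CPM in tau and 183, 232 and 228 CPM in EYFP animals (0.19 ± 0.16), Psmb6 at 589, 490, 480 and 454 against 393, 496 and 452 CPM (0.18 ± 0.14) and Psmb7 at 112, 102, 88.1 and 91.0 against 73.8, 86.9 and 99.7 CPM (0.19 ± 0.15). Psmb9 was at 4.10, 4.54, 6.54 and 4.92 against 3.99, 3.73 and 5.29 CPM (0.22 ± 0.23) and Psmb10 at 131, 110, 106 and 98.6 against 110, 112 and 90.8 CPM (0.11 ± 0.13). Psme1 was at 83.5, 82.0, 78.9 and 69.7 against 69.7, 81.5 and 67.3 CPM (0.12 ± 0.12) and Psme2 at 72.4, 64.9, 72.1 and 58.5 against 65.7, 70.7 and 58.0 CPM (0.07 ± 0.13). Animal B was highest in the tau group for each of these genes except Psmb9, where it was lowest.

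Among positive values, the core genes Psmb2 and Psma6 followed Psmb8 by p-value in the homogenate. Psmb2 was at 238, 225, 246 and 223 CPM in tau and 173, 223 and 216 CPM in EYFP animals (0.20 ± 0.14, unadjusted p 0.163), and Psma6 at 211, 197, 181 and 196 against 138, 183 and 192 CPM (0.21 ± 0.15, unadjusted p 0.196). Animal H was lowest in both. The 3 negative values were those of Psma8, at 0.398, 0.5, 0.487 and 0.387 against 0.669, 0.642 and 0.584 CPM (-0.49 ± 0.33), of Psmd1 at 230, 229, 190 and 203 against 259, 246 and 186 CPM (-0.09 ± 0.13) and of Psme4 at 6.57, 5.02, 5.55 and 4.42 against 6.05, 7.04 and 4.32 CPM (-0.09 ± 0.21). Psma8 did not overlap between the groups, on 19 to 28 counts a library in tau animals. Without animal H, 35 of the 51 members had positive values, and in the libraries numbered from 17 the members' median was 0.01, against 0.22 in those up to 11.

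By role, the lowest and highest values in the homogenate were 0.07 (Psma5) and 0.21 (Psma6) in the alpha ring, 0.15 (Psmb1) and 0.20 (Psmb2) in the beta ring, 0.01 (Psmc6) and 0.11 (Psmc2) among the ATPases, and -0.09 (Psmd1) and 0.15 (Psmd4) among the non-ATPase subunits. They were 0.03 (Psmd5) and 0.18 (Psmd9) among the 19S chaperones, 0.01 (Psmg3) and 0.14 (Psmg4) among the 20S chaperones, and -0.09 (Psme4) and 0.12 (Psme1) among the caps. Psmb11 had 0.79 ± 0.69 on 2 to 28 counts, and Psme3ip1 and Psmc3ip had 0.07 and 0.13.

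Whether the tau difference itself differed between IP and pre-IP was tested as an interaction, and 0 of 20495 genes were called by edgeR (0.0%). Of the members, 41 of 51 had positive values, where 45.4% of all genes did, with a median of 0.14 against -0.05. With each animal left out in turn, 29 (without B) to 41 (without H) members were positive, and limma gave 31. Without B the median of the core genes was 0.12 in place of 0.25. That of the 19S genes was -0.04 in place of 0.05. Short genes as a whole leaned to positive values too. All genes of up to 1491 bases, the shortest of 4 equal classes, had a median of 0.17, and the 26 members among them 0.22. DESeq2 called 0.254% of all genes and no member. At an unadjusted p under 0.05 there were 2 members, where 4.03% of all genes had higher and 1.94% lower values, and 3 members did not overlap with higher values, where 4.41% of all genes did. Psme2 had an interaction of 0.70 ± 0.25 on the log2 scale (unadjusted p 0.0127, adjusted p 0.725), from its values in IP and pre-IP given above. Psmb11 had -3.63 ± 1.67 (unadjusted p 0.0461), on 0 to 28 counts a library. The next in order were Psme1 (0.50 ± 0.25, unadjusted p 0.0644) and Psmg3, a 20S chaperone (0.45 ± 0.24, unadjusted p 0.0849), which was at 30.8, 29.5, 23.3 and 24.5 CPM in tau IP, 24.8, 17.7 and 21.7 in EYFP IP, 18.9, 20.2, 18.7 and 19.2 in tau pre-IP and 18.8, 20.3 and 18.8 in EYFP pre-IP. For Psmb8 and Psmb10 the interaction was 0.19 ± 0.29 and 0.42 ± 0.24, for Psmb9 -0.06 ± 0.37, and for Psmb5, Psmb6 and Psmb7 0.07 ± 0.21, 0.23 ± 0.22 and 0.27 ± 0.29. These fits treat the libraries of an animal as separate. With the animal as a block, the unadjusted p by edgeR was 0.00983 for Psme2, 0.0407 for Psma3 and 0.133 for Psmb11 (adjusted p 0.531, 0.567 and 0.660).

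The lowest and highest interactions by role were -0.00 (Psma6) and 0.38 (Psma3) in the alpha ring, 0.07 (Psmb5) and 0.43 (Psmb1) in the beta ring, -0.15 (Psmc3) and 0.26 (Psmc6) among the ATPases, and -0.19 (Psmd2) and 0.29 (Psmd8) among the non-ATPase subunits. The 19S chaperones ran from 0.14 (Psmd5) to 0.33 (Psmd10), the 20S chaperones from 0.16 (Psmg2) to 0.45 (Psmg3) and the caps from -0.03 (Psmf1) to 0.70 (Psme2). Psma8 had 0.75 ± 0.65, Psmc3ip 0.05 ± 0.28 and Psme2b 0.70 ± 0.40.

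The balance of immunoproteasome and constitutive messages was compared within pairs per length. The genes lie at 34197721 to 34201454 (Psmb8) and 34181987 to 34187764 (Psmb9) of chromosome 17 and 105935735 to 105938444 (Psmb10) of chromosome 8, in GRCm38. On CPM per kb of deposited exon length, Psmb8 made up 0.525% to 0.988% of the sum of Psmb8 and Psmb5 over the 14 libraries, and Psmb9 0.263% to 0.692% of the sum of Psmb9 and Psmb6. Psmb10 made up 64.6% to 75.1% of the sum of Psmb10 and Psmb7. With the principal transcript as the length, an alternative chosen after the data were seen, the shares were 1.08% to 2.03%, 0.304% to 0.798% and 44.6% to 57.1%, so the Psmb10 share depended on the length used. Exons of Psmb7 overlap those of the opposite-strand gene Nek6 over 11.8% of their length. Those of Psmb9 overlap the opposite-strand gene Tap1 over 5.8%, and those of Psmb5 the same-strand gene Mir686 over 12.1%.

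By group, the Psmb10 share was 71.0% ± 1.76 (SD, n = 4) in tau IP, 69.5% ± 5.09 (n = 3) in EYFP IP, 69.4% ± 1.14 (n = 4) in tau pre-IP and 70.5% ± 5.31 (n = 3) in EYFP pre-IP, so that the group means differed by less than the spread in the EYFP groups. The Psmb8 share was 0.783% ± 0.142 in tau IP and 0.618% ± 0.0926 in EYFP IP, and 0.810% ± 0.111 in tau pre-IP and 0.684% ± 0.0970 in EYFP pre-IP, with the same n. The tau and EYFP ranges overlapped in both fractions, at 0.663% to 0.988% and 0.525% to 0.710% in IP and at 0.693% to 0.941% and 0.611% to 0.794% in pre-IP. The Psmb9 share was 0.374% ± 0.0956 in tau IP and 0.441% ± 0.0958 in EYFP IP, and 0.517% ± 0.142 and 0.498% ± 0.107 in pre-IP. Within animals, the Psmb9 share was lower in IP in 6 of 7, from 0.472% to 0.263% in C and from 0.692% to 0.386% in L, and higher in I. The differences between these shares were not tested.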

How the data were processed

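RNA of brainstem was measured in 14 libraries, an IP and a pre-IP from each of 7 mice, made from polyadenylated RNA with SMART-Seq v4 and Nextera XT kits per the labels' protocols. The authors deposited whole-number read counts per gene, not normalized. FastQC, Trim Galore, STAR and featureCounts, with GRCm38 (mm10), are named in the submitters' processing notes, and neither strand nor multi-mapped reads are described in the sources used here. RNA integrity (a score), RNA concentration and construct reads came from the deposited sample sheet, per the file headers. Symbols and exon lengths came from the deposited gene table.

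Groups follow the labels, and the animal letter pairs IP and pre-IP of 1 animal. Their deviations from the group means correlated at 0.147 to 0.358 over 20495 genes. Counts were tested in edgeR 4.0.16 by quasi-likelihood (R 4.3.3; filterByExpr, TMM scaling, Benjamini-Hochberg over all genes, threshold 0.05), with treatment as a term in IP against pre-IP. The standard error is the log2 fold change over the square root of F. Overlap between groups and ratios of sums use CPM. Log2 ratios within an animal and differences within library-number ranges use TMM-scaled log2 CPM. Principal transcript lengths came from GENCODE M21, and copies were searched with BLAST+ 2.17.0 at 95% identity over 20% of the transcript, which found 10 members with a copy elsewhere. Exons of 16 members overlap another gene, 13 on the opposite strand. Depth was 41843489 to 65664551 counts per library, and 3 counts were taken as the floor, for counting error only.

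The members and lists were chosen with earlier results of these data known. The text names the highest and lowest member of each role in each comparison, the catalytic pairs, Psme1 and Psme2, and the 3 smallest p-values in each direction. Alternatives were DESeq2 1.42.0 (size factors; Wald test), voom with quality weights in limma 3.58.1, no filter, a mean of at least 50 counts, the library-number range as covariate, each animal left out, each treatment alone and the animal as a block. Fits were tested on simulated data. The main fits of IP against pre-IP and of the interaction hold no animal term, so both libraries of an animal enter as separate samples. Their p-values measure the spread between libraries within a group. In tau against EYFP within a fraction, p-values measure the spread between these animals, since separate litters or days are not given.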

Additional observations from a re-analysis of the deposited data

Results flagged for a closer look

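Animal B, a tau animal whose IP had the highest noradrenergic ratio, stood apart from the other 3 tau animals in several values. The summed CPM of all proteasome genes was 12380 in its IP and 10280 in its pre-IP library, each far above the next tau library relative to the range. In pre-IP the summed CPM of the constitutive beta ring (2185) and the CPM of Psmb5 (300.8) were likewise high in B, as was the CPM of Psma6 (301) in IP. These were 5 of 68 groups of 4 libraries examined, and chance alone gives about 1 in 20.

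The chaperones of 19S assembly had a median log2 IP to pre-IP ratio of 0.37 in B, 0.30 in C, 0.10 in L and 0.01 in M, and of -0.04 in H, -0.08 in I and -0.03 in K, so that each tau animal was above 0 and each EYFP animal below it, several of them by little. The tau mean lay 0.24 above the EYFP mean. The caps and the inhibitor gene, as a role, also separated the treatments, and by more. Their median was 0.25 to 0.82 in tau and -0.08 to 0.17 in EYFP animals, with the tau mean 0.46 above the EYFP mean. The differences of these medians were not tested. For the single 19S chaperone genes the interaction of treatment and fraction was 0.33 for Psmd10, 0.15 for Psmd9 and 0.14 for Psmd5 (unadjusted p 0.0963, 0.516 and 0.495 by edgeR), and none passed. In EYFP animals alone the IP difference was 0.02 for Psmd10, 0.03 for Psmd9 and -0.11 for Psmd5.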

How the results depend on the processing

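The 14 core genes were called higher in IP under each alternative for IP against pre-IP except EYFP animals alone, where 5 members in all were called in place of 30. With the animal as a block 28 members were called (32.6% of all genes), and Psmb8 and Psmd7 lost the call. Leaving out each animal in turn gave 24 to 29 members, and Psmb8 lost its call each time. In tau IP against EYFP IP the DESeq2 Wald test called 1 member in place of 0. Over all genes that comparison gave 411 calls by DESeq2, 113 without a filter and 128 without animal M, against 0. The homogenate gave 44 without a filter, and the interaction 52 by DESeq2, 67 without a filter and 56 without M, each against 0.

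Signs changed only for members not called in that comparison, and the cause was not tested. In IP against pre-IP, Psmc5 had 0.00487 by limma and 0.01735 in tau animals alone, and leaving out an animal gave -0.02884 to 0.02398 for Psmc5 and -0.1151 to 0.01788 for Psmd5. In tau IP against EYFP IP, Psme4 had 0.03921 by limma and Psma8 -0.01108 with the library-number range as covariate. Leaving out an animal there gave -0.01962 to 0.209 for Psma4, -0.1604 to 0.5154 for Psma8, -0.0292 to 0.2902 for Psmb9, -0.1248 to 0.001676 for Psmc3 and -0.1941 to 0.1473 for Psme4. In the homogenate, Psmc6 had -0.005778 by limma, and leaving out an animal gave -0.05076 to 0.213 for Psma5, -0.02451 to 0.2142 for Psmc2, -0.138 to 0.156 for Psmc6, -0.007082 to 0.05972 for Psmd5, -0.2319 to 0.08649 for Psme4 and -0.04486 to 0.0512 for Psmg3. In the interaction, limma gave -0.04942 for Psmb7, -0.008721 for Psmb8 and -0.06141 for Psmc3ip, and a mean of at least 50 counts gave 0.0136 for Psma6. Leaving out an animal there gave -0.1653 to 0.06707 for Psma6, -0.1117 to 0.2435 for Psmb5, -0.01645 to 0.2982 for Psmb8, -0.2862 to 0.1206 for Psmb9, -0.05182 to 0.1509 for Psmc3ip, -0.03412 to 0.2053 for Psmd5 and -0.1741 to 0.0507 for Psmf1.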
